A study of Rattus norvegicus with 6 samples.

Results

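The Hedgehog pathway genes described here are 10 genes chosen by name: the ligand genes Shh and Dhh, the receptor and co-receptor genes Ptch1, Smo, Boc and Gas1, the ligand-binding decoy gene Hhip and the transcription factor genes Gli1, Gli2 and Gli3. All 10 were found among the 30957 genes of the deposited mRNA table, and all 10 passed the filter on low counts, which kept 15195 genes. The choice rests on gene names and not on a threshold in these data, but it was made with earlier results of these data known. RNA was sequenced from the sciatic nerve of 1-month-old Sprague-Dawley rats in 3 groups of 2 libraries each, a and b. The control group is labelled as normal, while by the methods of the study its rats underwent surgery with no clamp applied. The D4 and D7 groups were taken 4 and 7 days after the middle of the left sciatic nerve was crushed with hemostatic forceps. The letters a and b do not pair rats across groups, and each library came from a different rat. The crushed nerve is a mixture of Schwann cells, fibroblasts, perineurial cells, vessels and invading blood cells, so fewer cells of a type and less RNA per cell cannot be told apart in these libraries.

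Hedgehog proteins are secreted, lipid-modified signals. In the absence of ligand the receptor Ptch1 holds the membrane protein Smo inactive, and ligand binding to Ptch1, helped by the co-receptors Boc, Gas1 and Cdon, frees Smo to act on the Gli transcription factors. Gli1 and Ptch1 are themselves transcribed in response to the signal, as is Hhip, which binds the ligands at the cell surface. In peripheral nerve, Dhh is the ligand made by Schwann cells, and mice without it form a defective perineurium, the cellular sheath around each nerve fascicle.

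The Ptch1 promoter is shown because Ptch1 is a textbook Gli target and because, of the members with a promoter entry, it was the one that held the Gli motif. Promoters, 250 bases before to 50 bases after the start site, were found for 7 members (Smo, Dhh, Boc, Gli2, Ptch1, Gli3 and Hhip) in RefSeq on build GRCr8. The Gli motif GACCACCCA, or its reverse complement TGGGTGGTC, was in 129 of 33469 promoters of this length (0.385%) and in 1 of the 7. In the Ptch1 promoter (chr17:1555321-1555620, plus strand), printed with the motif in capitals, it begins at base 79 of 300, 172 bases before the start site. The Hhip promoter (chr19:44767788-44768087, plus strand) is also shown, since Hhip had the lowest D7 level relative to control among the members, and it held no match. Its 50 bases after the listed start site open with the letters atg, so that site may be a start codon and not the start of transcription. The lack of a match in Hhip can therefore not be set beside the match in Ptch1. No match was found in the 13 promoters of the other known Gli target genes listed here. A match is a run of letters, and binding was not measured.
Ptch1: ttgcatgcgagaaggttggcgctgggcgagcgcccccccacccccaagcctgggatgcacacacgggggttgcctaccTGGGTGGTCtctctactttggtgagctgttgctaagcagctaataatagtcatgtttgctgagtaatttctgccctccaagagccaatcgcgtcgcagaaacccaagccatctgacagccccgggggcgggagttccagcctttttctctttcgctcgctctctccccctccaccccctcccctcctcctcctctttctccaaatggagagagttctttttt
Hhip: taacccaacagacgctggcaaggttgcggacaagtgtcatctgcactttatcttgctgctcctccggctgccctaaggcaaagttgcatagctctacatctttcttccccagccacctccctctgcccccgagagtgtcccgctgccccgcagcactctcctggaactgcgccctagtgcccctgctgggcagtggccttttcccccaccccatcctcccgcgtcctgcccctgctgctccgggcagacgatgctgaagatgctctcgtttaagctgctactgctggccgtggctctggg

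Levels are given as CPM, the fragment counts of the tested genes scaled to a common library total with the TMM factors of edgeR. A gene was called when its adjusted p-value from edgeR's quasi-likelihood test was under 0.05 and its fold change was at least 2. Totals were 18727255 to 25350886 fragments per library on mRNAs. As a check of the tissue, the summed markers of myelinating Schwann cells lay between 72727 and 106159 CPM in the 2 controls, 3405 to 3886 at D4 and 10864 to 17473 at D7, and the summed markers of repair Schwann cells between 142 and 144, 2806 and 2987, and 1798 and 1849.

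Of the 10 members, 1 was called at D4, where 21.9% of all tested genes were called, and 3 at D7, where 18.8% were. Shh rose at both days, and Boc and Hhip fell at D7. Between D7 and D4, Shh alone was called, against 2.18% of all genes. With the adjusted p alone, 4 members passed at D4 (background 44.2%), 6 at D7 (37.5%) and 1 between D7 and D4 (4.67%). By direction, the background of called genes was 11.2% higher and 10.7% lower at D4, and 9.83% higher and 9.02% lower at D7. The background of genes lower by the adjusted p alone, as 3 members were at D4 and 5 at D7, was 22.6% and 18.1%. The members' median log2 fold change was −0.49 at D4 and −0.47 at D7, against −0.04 and 0.01 over all tested genes, and 8 of 10 lay below 0 at each day. Without the TMM factors these medians were −0.20 and −0.18 against 0.25 and 0.31, and 6 of 10 lay below 0 at each day. In that fit Dhh and Smo at D4, and Gli2 and Gli3 at D7, no longer passed the adjusted p alone. When the 2-fold change itself was tested (glmTreat of edgeR), Shh at D4 was the 1 member that passed, with 0 at D7 and 0 between D7 and D4. D4 and D7 were compared with the same control libraries.

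**Figure D1:**
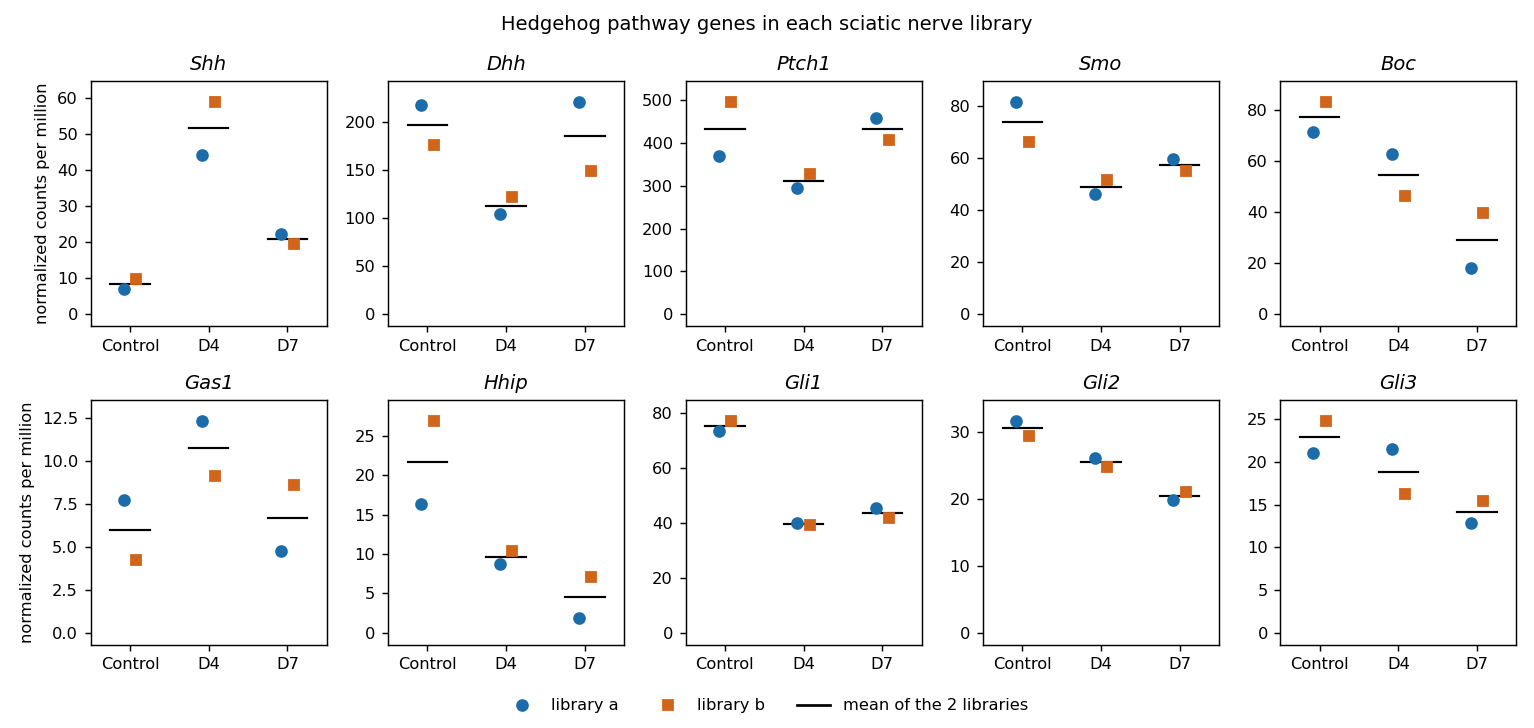
Level of each Hedgehog pathway gene in each library, in TMM-normalized CPM on a linear axis, by group, with circles for library a, squares for library b and lines for the mean of the 2 libraries. Both D4 libraries of Shh (44.4 and 58.9) sit above all other libraries of that gene, while the D7 libraries of Hhip (1.88 and 7.12) sit below all others.

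Shh, which encodes Sonic hedgehog (ENSRNOG00000006120, Rnor_6.0 chromosome 4, 718538 to 727691), had 134 and 165 counts in the 2 controls, 1081 and 1594 at D4 and 474 and 395 at D7. Its CPM was 6.90 and 9.95 in control, 44.4 and 58.9 at D4, and 22.3 and 19.5 at D7. The 3 groups did not overlap. The level was 6.14-fold higher at D4 (log2 fold change 2.62, standard error (SE) 0.23, adjusted p = 0.000472) and 2.49-fold higher at D7 (1.31, SE 0.23, adjusted p = 0.00675). From D4 to D7 it fell by 1.30 on the log2 scale (SE 0.21, adjusted p = 0.0343). The fall from D4 to D7 was no longer called without D4 a (adjusted p = 0.168), D4 b (0.212), D7 a (0.143) or D7 b (0.0831).

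Dhh (Desert hedgehog, chromosome 7, 140575288 to 140580783) was the more abundant ligand in every library. Its CPM was 218 and 176 in the 2 controls, 105 and 122 at D4, and 221 and 149 at D7. Both D4 libraries were below both control libraries, whereas the D7 libraries overlapped the control libraries. The D4 difference passed the adjusted p but was smaller than 2-fold (log2 fold change −0.80, SE 0.21, adjusted p = 0.0242). At D7 the log2 fold change was −0.09 (SE 0.21, adjusted p = 0.756), and D7 was 0.71 above D4 (SE 0.21, adjusted p = 0.108). The summed markers of the Schwann cell lineage, the cells known to make Dhh in nerve, were 4986 and 4044 CPM in control, 3440 and 3669 at D4, and 5188 and 4204 at D7. Their part in the Dhh values was not tested.

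To compare levels between genes, the FPKM values of the authors, which are scaled for gene length and library total, were used. Dhh was at 75.8 and 62.9 FPKM in the 2 controls, 44.9 and 52.4 at D4, and 94.7 and 65.1 at D7. Shh was at 3.47 and 5.13 FPKM in control, 27.6 and 36.7 at D4, and 13.8 and 12.3 at D7. Shh therefore made up 4.38% and 7.54% of the summed FPKM of both ligands in the 2 controls, 38.0% and 41.1% at D4, and 12.7% and 15.9% at D7. The mean share was 5.96% ± 2.23 in control, 39.6% ± 2.20 at D4 and 14.3% ± 2.24 at D7 (SD, n = 2), and the groups did not overlap. The sum in FPKM overlapped between groups, at 79.2 and 68.1 in control, 72.5 and 89.1 at D4, and 108 and 77.4 at D7. The FPKM lack the TMM factors used for the CPM here, which matters for the sum and not for the share. In CPM, not scaled for gene length, the sum was 225 and 186 in control, 149 and 181 at D4, and 243 and 169 at D7. Both D4 sums in CPM were thus below both controls. Mean Dhh at D7 was above control in FPKM (79.9 against 69.4) and below it in CPM (185 against 197). A two-sided exact permutation test gave p = 0.333 for each pair of groups, which is the smallest p that 2 libraries against 2 allow, and no other test of the share was made.

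**Figure D2:**
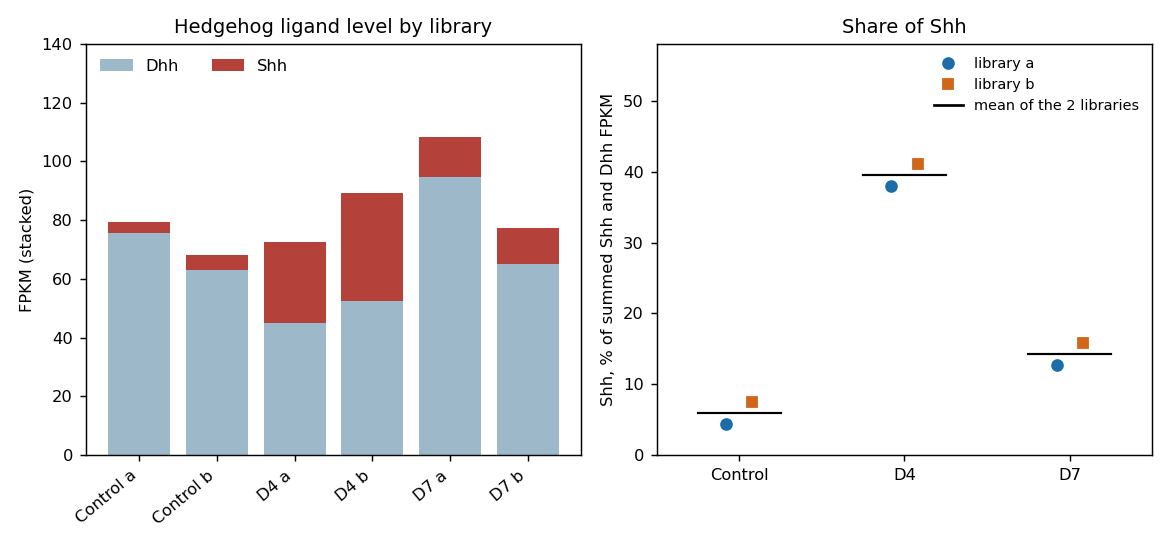
Left, FPKM of Dhh and Shh stacked for each library; right, Shh as a percentage of the summed FPKM of both ligands, with circles for library a, squares for library b and lines for group means. The Shh share was 38.0% and 41.1% at D4, above 4.38% to 7.54% in control and 12.7% to 15.9% at D7.

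Ptch1 (chromosome 17, 1029048 to 1093873), the receptor, was at 369 and 495 CPM in the 2 controls, 295 and 328 at D4, and 457 and 406 at D7. The D4 libraries lay below both control libraries without passing the test (log2 fold change −0.47, SE 0.16, adjusted p = 0.0558), and the D7 libraries lay between the control libraries (−0.00, SE 0.16, adjusted p = 0.996). Smo (chromosome 4, 57019941 to 57042770), the signal transducer, was at 81.4 and 66.3 CPM in control, 46.1 and 51.6 at D4, and 59.5 and 55.1 at D7. All 4 injured libraries were below both control libraries. The D4 difference of Smo passed the adjusted p at less than 2-fold (−0.60, SE 0.13, adjusted p = 0.0129), and the D7 difference did not pass (−0.37, SE 0.13, adjusted p = 0.0710). D7 against D4 gave 0.47 for Ptch1 (adjusted p = 0.145) and 0.23 for Smo (adjusted p = 0.334).

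Boc (chromosome 11, 61083757 to 61158838), an immunoglobulin-family co-receptor, had 1384 and 1376 counts in the 2 controls, 1525 and 1249 at D4, and 384 and 805 at D7. This is 71.3 and 83.0 CPM in control, 62.6 and 46.1 at D4, and 18.0 and 39.8 at D7. The groups did not overlap, and D7 a was the lowest library. Boc was 2.67-fold lower at D7 (log2 fold change −1.42, SE 0.36, adjusted p = 0.0268), with −0.50 at D4 (SE 0.36, adjusted p = 0.288) and −0.91 for D7 against D4 (SE 0.36, adjusted p = 0.191). The D7 call was lost without control a (adjusted p = 0.0540), without control b (0.0825) and without D7 a, when the log2 fold change was −0.92 (adjusted p = 0.0394). Without D7 b, the difference between D7 and D4 passed (−1.59, adjusted p = 0.0326).

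Gas1 (chromosome 17, 4846789 to 4847940), a membrane-anchored co-receptor, was at 7.73 and 4.22 CPM in the 2 controls, 12.4 and 9.12 at D4, and 4.74 and 8.61 at D7. Both D4 libraries were above the control and D7 libraries, and D7 overlapped control. None of its differences passed, with log2 fold changes of 0.84 at D4 (SE 0.40, adjusted p = 0.135), 0.15 at D7 (SE 0.40, adjusted p = 0.787) and −0.69 for D7 against D4 (SE 0.39, adjusted p = 0.342).

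Hhip (chromosome 19, 31524671 to 31614246), the decoy receptor, had 318 and 447 counts in the 2 controls, 213 and 283 at D4, and 40 and 144 at D7. Its CPM was 16.4 and 27.0 in control, 8.74 and 10.5 at D4, and 1.88 and 7.12 at D7. Every D7 library was below every D4 library and every D4 library below every control library. Hhip was 4.82-fold lower at D7 (log2 fold change −2.27, SE 0.58, adjusted p = 0.0260). The D4 difference of −1.17 (SE 0.55, adjusted p = 0.130) and the D7 against D4 difference of −1.10 (SE 0.57, adjusted p = 0.298) did not pass. The D7 call was lost without control b (adjusted p = 0.0887), D4 a (0.0555) or D4 b (0.0565). The D4 difference passed without D7 a (adjusted p = 0.0226) or D7 b (0.0215). Without D7 b, D7 against D4 passed as well (−2.35, adjusted p = 0.0467), and without D7 a that difference was −0.44 (adjusted p = 0.606).

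Markers of several other cell types were lower in the D7 libraries too, and D7 a was below D7 b in 5 of the 7 lists that follow. The 5 adipocyte markers summed to 1315 and 1080 CPM in control, 309 and 153 at D4, and 7.09 in D7 a against 438 in D7 b, and none was called at D7. Of the 6 endothelial markers found, 5 were called lower at D7, and they summed to 909 and 1577 CPM in control, 637 and 560 at D4, and 324 in D7 a against 553 in D7 b. Of the 6 pericyte and smooth muscle markers, 2 were called lower at D7, and the sums were 1028 and 5087 in control, 702 and 799 at D4, and 505 in D7 a against 1018 in D7 b. Of the 7 perineurial markers tested, 4 were called lower and 1 higher at D7, and the sums were 2867 and 2313 in control, 1014 and 1045 at D4, and 1567 in D7 a against 1223 in D7 b. Itgb4 alone gave 2065 and 1713 CPM of the perineurial sums in control, 623 and 679 at D4, and 1260 in D7 a against 923 in D7 b. Lypd2 of the perineurial list was at 0 in all 6 libraries. Of the 6 general fibroblast markers tested, 2 were called lower at D7, and the sums were 55082 and 59775 in control, 37340 and 33634 at D4, and 28945 in D7 a against 31928 in D7 b, with Col1a2 at 0 in all 6 libraries. Of the 5 epineurial fibroblast markers found, 1 was called at D7, as higher, and the sums were 256 and 269 in control, 396 and 251 at D4, and 112 in D7 a against 234 in D7 b. Of the 7 endoneurial fibroblast markers found, 1 was called at D7, as higher, and the sums were 413 and 367 in control, 205 and 211 at D4, and 277 in D7 a against 263 in D7 b. The part of these cell types in the values of Boc and Hhip was not tested.

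**Figure D3:**
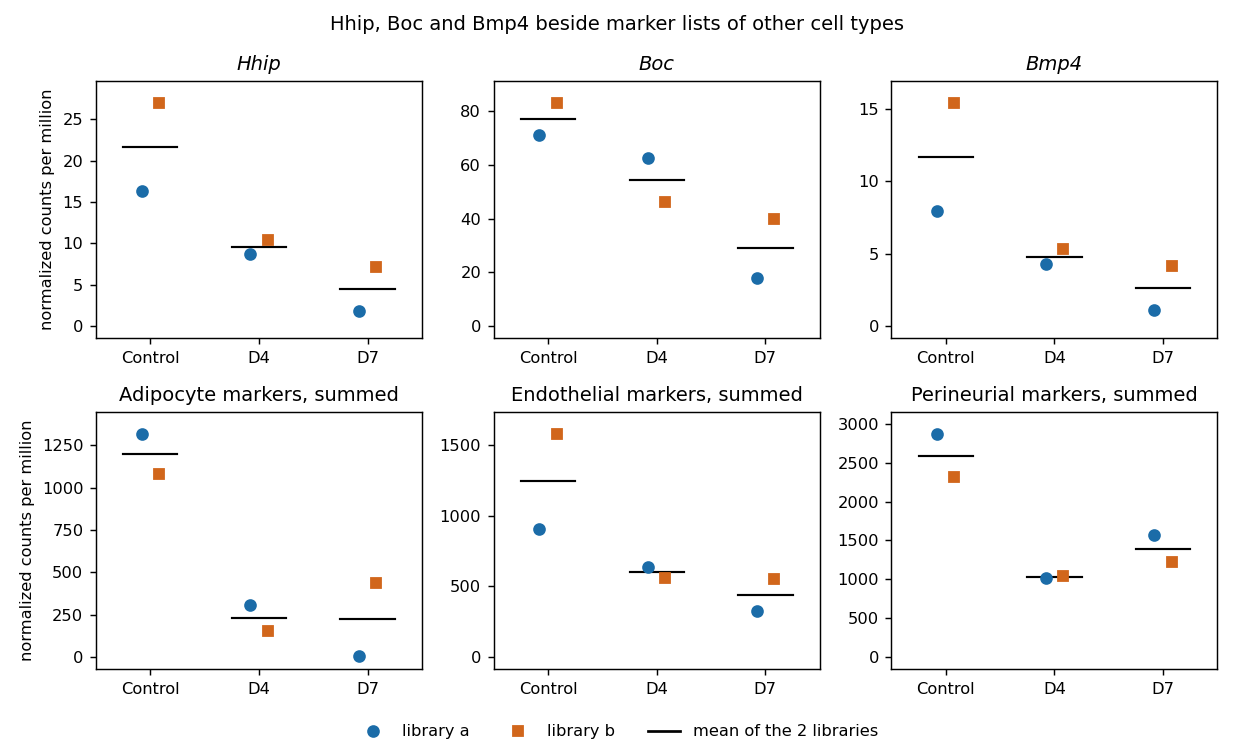
Hhip, Boc and Bmp4 above the summed markers of adipocytes, endothelial cells and perineurial cells, in TMM-normalized CPM per library on linear axes, with circles for library a, squares for library b and lines for group means. D7 a is below D7 b for the 3 genes and for the adipocyte (7.09 against 438) and endothelial (324 against 553) sums, and above it for the perineurial sum (1567 against 1223).

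Gli1 (chromosome 7, 70620766 to 70630338), an activator that is itself a target of the pathway, was at 73.5 and 77.1 CPM in the 2 controls, 39.8 and 39.4 at D4, and 45.3 and 41.9 at D7. The libraries of each group were close to each other, and all injured libraries were below both control libraries. The log2 fold change was −0.93 at D4 (SE 0.09, adjusted p = 0.000655) and −0.79 at D7 (SE 0.09, adjusted p = 0.00162), both short of 2-fold, and 0.14 for D7 against D4 (SE 0.09, adjusted p = 0.398). Gli1 overlaps the span of Arhgap9, and the use of strand in the counting is not given in the sources used here. No other member overlaps the span of another gene.

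Gli2 (chromosome 13, 34829139 to 35048444), the main activator of the pathway, was at 31.7 and 29.4 CPM in control, 26.1 and 24.8 at D4, and 19.9 and 21.0 at D7. Its groups did not overlap, and the D7 difference passed the adjusted p at less than 2-fold (log2 fold change −0.58, SE 0.11, adjusted p = 0.00861), while at D4 it was −0.26 (SE 0.11, adjusted p = 0.0891). Gli3 (chromosome 17, 52294942 to 52569036), which acts mainly as a repressor without ligand, was at 21.0 and 24.8 CPM in control, 21.5 and 16.2 at D4, and 12.9 and 15.5 at D7. The D4 libraries of Gli3 overlapped the control libraries (−0.28, SE 0.19, adjusted p = 0.263), and the D7 libraries were below them (−0.69, SE 0.19, adjusted p = 0.0329). D7 against D4 gave −0.32 for Gli2 (adjusted p = 0.141) and −0.41 for Gli3 (adjusted p = 0.247).

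**Figure D4:**
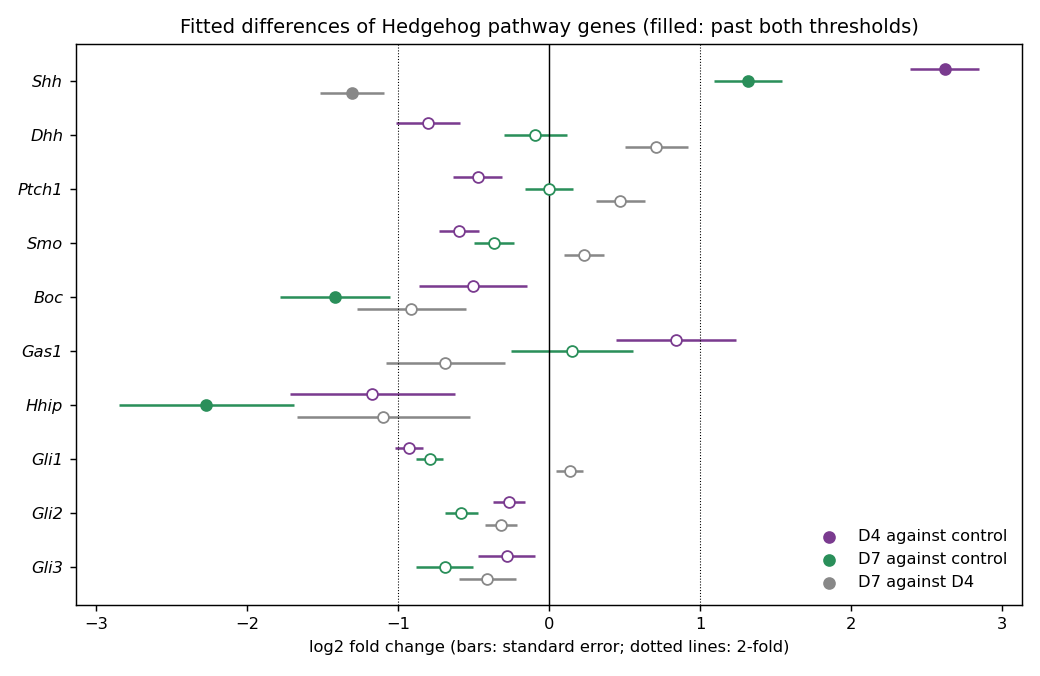
Fitted log2 fold changes of the 10 genes with standard errors, for each injured group against control and for the injured groups against each other; filled points passed both the adjusted p and the 2-fold threshold, and dotted lines mark 2-fold. Shh is filled in all 3 comparisons, Boc (−1.42) and Hhip (−2.27) at D7, and the Gli1 points (−0.93 and −0.79) have the shortest error bars.

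By FPKM, Dhh was the highest member in each group, followed by Ptch1. In the control libraries the means were 69.4 FPKM for Dhh, 46.9 for Ptch1, 16.9 for Gli1, 16.3 for Boc, 16.1 for Smo, 6.87 for Hhip, 4.51 for Gas1, 4.30 for Shh, 4.19 for Gli2 and 2.57 for Gli3. The library ranges of Gli1, Boc and Smo overlapped from one to the next, as did those of Hhip, Gas1, Shh and Gli2. At D4 Shh came after Ptch1 at 32.1 ± 6.43 FPKM (SD, n = 2), with a range clear of Ptch1 (41.2 ± 3.13) and Boc below (14.0 ± 2.97). At D7 Shh came after Smo at 13.1 ± 1.07 FPKM, with a range overlapping that of Gli1 (11.6 to 12.3 FPKM), and Hhip was last at 1.75 ± 1.46, overlapping Gli3 (1.95 ± 0.27).

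Another 68 genes of the pathway were listed by role, of which 65 were found and 61 tested. Gpc5, Grk2 and Foxf2 were not found under those symbols, and Ihh, Zic1, Nkx2-2 and Hand2 did not pass the filter. Zic1 had under 3 counts in every library. Of the 61, 7 were called at D4, 3 higher and 4 lower, and 12 at D7, 4 higher and 8 lower. These are 11.5% and 19.7% of the 61, against 21.9% and 18.8% of all tested genes. Without the TMM factors, 7 of 10 called genes were higher at D4 (3 of 7 with them) and 6 of 10 at D7 (4 of 12 with them). The same shift was seen over all tested genes. There, 2430 of 3507 called genes were higher at D4 without the factors (1706 of 3333 with them), and 2215 of 3145 at D7 (1493 of 2863 with them). Between D7 and D4, 1 of 61 was called (1.64%, against 2.18% of all tested genes). The median log2 fold change of the 61 was −0.20 at D4 and −0.17 at D7.

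Among the genes for ligand processing and release, Disp1, which releases lipid-modified ligand from cells, was 153 and 127 CPM in control, 50.7 and 53.3 at D4, and 59.8 and 51.4 at D7. Disp1 fell at D4 (log2 fold change −1.43, SE 0.13, adjusted p = 0.000564) and at D7 (−1.33, SE 0.13, adjusted p = 0.00104). Adam17, a sheddase of cell surface proteins, was 124 and 149 CPM in control, 159 and 152 at D4, and 385 and 305 at D7. Adam17 rose at D7 (1.34, SE 0.15, adjusted p = 0.00152) and from D4 to D7 (1.15, SE 0.15, adjusted p = 0.0215), with 0.18 at D4 (adjusted p = 0.348). The call from D4 to D7 was lost without D4 a (adjusted p = 0.190), D4 b (0.183) or D7 a (0.0757).

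Of 8 other receptors and co-receptors, 2 were called at D4 and 3 at D7, all lower (25% and 37.5%, where 10.7% and 9.02% of all tested genes were called lower). Lrp2, the endocytic receptor megalin, went from 68.9 and 47.7 CPM in control to 3.08 and 5.73 at D4 and 7.89 and 6.09 at D7, with log2 fold changes of −3.72 (SE 0.35, adjusted p = 0.000569) and −3.06 (SE 0.34, adjusted p = 0.00140). The glypican gene Gpc6 went from 58.3 and 80.3 CPM to 32.4 and 30.9 at D4 (−1.13, adjusted p = 0.0133) and 20.8 and 33.2 at D7 (−1.36, adjusted p = 0.00883). The D4 call of Gpc6 was lost without control b (adjusted p = 0.0513), D4 a (0.0719) or D4 b (0.0839). Cdon, a co-receptor related to Boc, was 80.1 and 111 CPM in control, 57.9 and 49.3 at D4, and 26.7 and 54.2 at D7, lower at D7 (−1.24, SE 0.34, adjusted p = 0.0325). As with Boc, D7 a was the lowest Cdon library, and the call was lost without D7 a (−0.79, adjusted p = 0.0643), control b (adjusted p = 0.115), D4 a (0.0642) or D4 b (0.0645).

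Of the 14 genes that act at Smo or in the primary cilium, edgeR called 0 at D4, 0 at D7 and 0 between D7 and D4. Past the adjusted p alone were 5, 3 and 0. Of the 13 regulators of the Gli proteins it also called 0 in each comparison, with 4, 3 and 0 past the adjusted p alone. Over all tested genes, 44.2%, 37.5% and 4.67% passed the adjusted p alone. DESeq2 called 0 of both lists in each comparison. Uncalled values in the Smo and cilium list ran from −0.73 to 0.89 on the log2 scale at D4 and from −0.72 to 0.67 at D7. Those of the Gli regulators ran from −0.95 to 2.64 at D4 and from −0.77 to 1.75 at D7. The highest of them was Zic2, named after its values were seen, with 3 and 0 counts in control, 13 and 15 at D4, and 3 and 9 at D7 (adjusted p = 0.0800 and 0.257).

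Of 19 known Gli target genes tested, 4 were called at D4 (21.1%, close to the 21.9% of all tested genes) and 7 at D7 (36.8% against 18.8%), in both directions. Ccnd1, Ccne1 and Mycn were called higher at both days. Ccnd1, which encodes cyclin D1, went from 106 and 147 CPM in control to 1482 and 1632 at D4 and 832 and 894 at D7, with log2 fold changes of 3.63 (SE 0.19, adjusted p = 0.000131) and 2.77 (SE 0.18, adjusted p = 0.000381). Ccne1, which encodes cyclin E1, rose from 1.75 and 2.29 CPM to 15.4 and 15.3 at D4 (2.93) and 11.7 and 10.7 at D7 (2.47), and the transcription factor gene Mycn rose from 1.03 and 0.96 CPM to 3.28 and 4.62 at D4 (1.98) and 6.24 and 6.23 at D7 (2.64). The 6 proliferation markers were called higher at both days, and they summed to 34.3 and 73.0 CPM in control, 880 and 1022 at D4, and 581 and 620 at D7. Their part in the 3 rises was not tested.

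Wnt5a was called lower at both days, and Bmp2, Bmp4 and Igfbp6 at D7. Wnt5a, a Wnt ligand gene, was lower at D4 (20.3 and 42.7 CPM in control, 10.6 and 7.94 at D4, log2 fold change −1.76, SE 0.46, adjusted p = 0.0239) and at D7 (6.48 and 13.2 CPM, −1.68, SE 0.46, adjusted p = 0.0328). Bmp4, a bone morphogenetic protein gene, was 7.93 and 15.4 CPM in control, 4.27 and 5.32 at D4, and 1.13 and 4.16 at D7, lower at D7 by a log2 fold change of −2.14 (SE 0.61, adjusted p = 0.0371). Bmp2, of the same family, had 133 and 207 counts in control and 72 and 101 at D7 (−1.20, SE 0.35, adjusted p = 0.0380). Igfbp6, which encodes a binding protein of insulin-like growth factors, was 464 and 315 CPM in control and 140 and 165 at D7 (−1.35, SE 0.23, adjusted p = 0.00626). The D7 calls of Bmp2, Bmp4 and Wnt5a were each lost without control b (adjusted p = 0.135, 0.133 and 0.122), without D7 a (0.164, 0.0793 and 0.125), without D4 a (0.0756, 0.0722 and 0.0613) and without D4 b (0.0758, 0.0730 and 0.0615), and that of Bmp2 also without D7 b (0.0509). The D4 call of Wnt5a was lost without control b (0.0913), D4 a (0.0834) or D4 b (0.135).

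**Figure D5:**
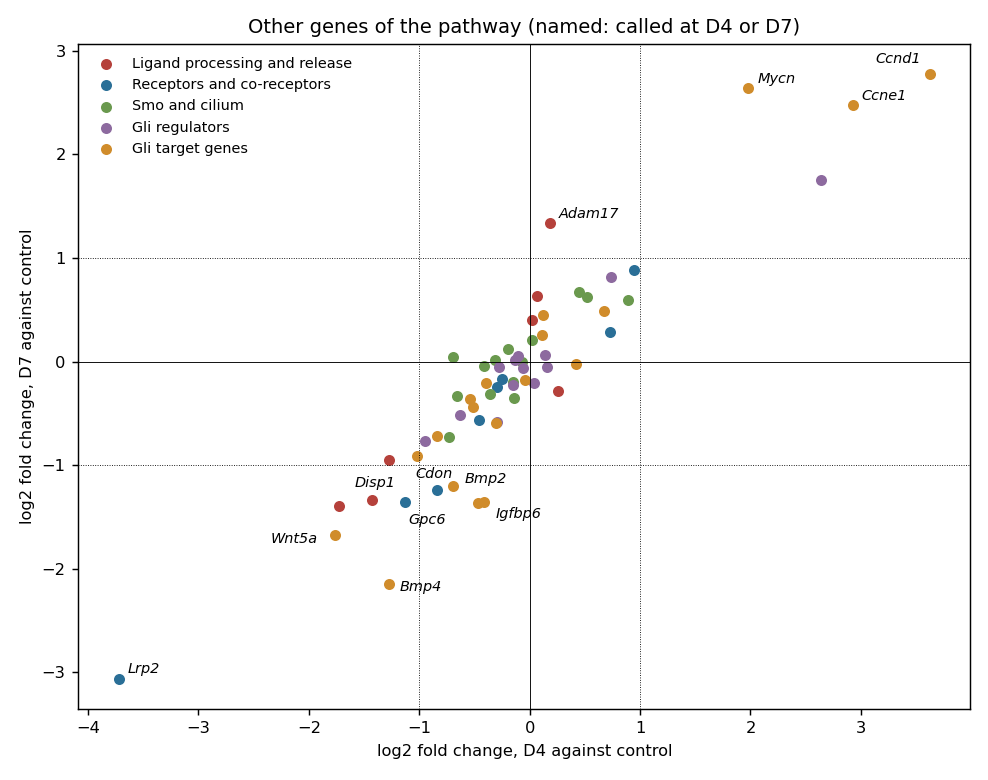
Log2 fold changes of the 61 other pathway genes tested, D4 against control on the horizontal axis and D7 against control on the vertical axis, coloured by role; both axes share the control libraries, named genes were called at D4 or D7, and dotted lines mark 2-fold. Ccnd1, Ccne1 and Mycn lie at the upper right, Lrp2 (−3.72 and −3.06) at the lower left, and Adam17 near 0 at D4 and at 1.34 at D7.

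Of the 22721 lncRNA transcripts, 14 overlapped or lay within 10 kb of a member gene, at 7 of the 10 loci, with none at Boc, Gas1 and Gli2. Of these, 11 passed the filter. edgeR called 0 at D4, 1 at D7 and 0 between D7 and D4 (background 10.1%, 5.79% and 0.249% of 14077 lncRNAs). DESeq2 called 2, 4 and 0, where it called 1928, 1468 and 379 of the 14077 lncRNAs. On simulated counts, edgeR called 0 of 99 lncRNA changes of 2-fold and 0 of 101 of 4-fold. Those changes were put into 13524 lncRNAs, while 1415 of 14077 were called at D4 in the data. An adjusted p is harder to pass when fewer features change, so the simulation does not measure the power in these data. Uncalled lncRNAs are not read as unchanged here. The counting may have split the fragments of an overlapping lncRNA and gene. The lncRNA called was NONRATT025879.2 (chromosome 7, 70617979 to 70618665), 2101 bases from Gli1, with 4 and 3 counts in the 2 controls, 16 and 11 at D4, and 20 and 25 at D7 (log2 fold change 2.55, SE 0.49, adjusted p = 0.0444). Its call was lost without any 1 of the 6 libraries (adjusted p between 0.0921 and 0.170), and its counts were low.

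The most counted lncRNA near Shh was ENSRNOT00000080318 (chromosome 4, 732721 to 736212), 5030 bases away, with 104 and 126 counts in control, 227 and 343 at D4, and 319 and 233 at D7. Its injured libraries were all above control, at log2 fold changes of 1.13 (adjusted p = 0.0594) and 1.16 (adjusted p = 0.0721), neither of which passed. Near Dhh, MSTRG.26054.1 had 205 and 179 counts in control, 94 and 156 at D4, and 235 and 209 at D7. Inside Ptch1, NONRATT012705.2 had 2527 and 2918 counts in control, 2115 and 2617 at D4, and 2867 and 2686 at D7. Near Hhip, NONRATT014171.2 had 114 and 206 counts in control, 72 and 104 at D4, and 12 and 59 at D7, so that D7 a was its lowest library, as for Hhip. Near Gli1, NONRATT025878.2 had 5 and 4 counts in control, 30 and 9 at D4, and 15 and 28 at D7. Partly overlapping Gli3, NONRATT012982.2 had 134 and 264 counts in control, 163 and 180 at D4, and 123 and 160 at D7. Near Smo, NONRATT020312.2 had at most 3 counts in a library.

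The genes whose pattern over the 6 libraries was most like that of each member were found among 13788 genes of at least 1 CPM on average, as the smallest root mean square difference of centred log2 CPM. For Shh they were Lctl (0.12), Wdr62 (0.13) and Duoxa1 (0.14), and for Dhh Ankrd13b (0.06), Lamb1 (0.08) and Mboat2 (0.08). For Boc they were S1pr1 (0.09), Pde2a (0.12) and Ace (0.16). For Hhip the nearest was Bmp4 (0.13), followed by Hdc (0.23) and Clec11a (0.30). For Gli1 they were Alpl (0.01), Tbl1x (0.03) and Ctdsp1 (0.03). For Ptch1 they were RGD1562747, Ppidl1 and Tp53inp2, for Smo Slc25a42, Nudt3 and Lzic, for Gas1 Cds1, Trim6 and AABR07005838.1, for Gli2 Cyb5r1, Tex264 and Zfp664, and for Gli3 Asb13, Prkch and Tp53i3. These likenesses rest on 6 libraries that share their groups and their scaling, and they describe patterns without a test.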

How the data were processed

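Sciatic nerve RNA of 6 rats, 2 per group, was depleted of ribosomal RNA and sequenced as paired ends. Per the labels and the methods of the study, the authors mapped the reads to the rat genome Rnor_6.0 with HISAT2 2.0.4 and assembled and counted transcripts with StringTie 1.3.0. The deposited tables hold whole-number fragment counts per gene and per lncRNA transcript, not normalized, and FPKM values that the authors computed from them. The counts were used for all tests except the permutation test of the Shh share, which used FPKM. FPKM also served to compare levels between genes, and the share and sum of the 2 ligands between groups. Strand use in counting is not given in the sources used here.

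After a low-count filter (filterByExpr) and TMM scaling (factors 0.863 to 1.08 for mRNAs), counts were tested with edgeR 4.0.16 in R 4.3.3 (glmQLFit and glmQLFTest, 1 fit of the 6 libraries, mRNAs and lncRNAs separately), with Benjamini-Hochberg adjustment over every feature that was tested. Of the genes 15195 of 30957 were tested, and of the lncRNAs 14077 of 22721, at 2694777 to 3043817 lncRNA fragments per library. A call needed a 2-fold change besides an adjusted p below 0.05. Standard errors (SE) were obtained by dividing the size of each log2 fold change by the root of its F statistic. CPM refer to the tested genes. The p-values measure the spread between 2 rats per group.

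The members and the gene lists were chosen with earlier results of these data known. Named are all 10 members, every gene of the other pathway lists called in at least 1 comparison or under 3 counts in every library, every lncRNA called at a member locus and the most counted one of each locus, and the 3 genes of at least 1 CPM most like each member. Of the marker lists, the marker symbols Foxd3, Spon2, Clec3b, Pcolce2 and Pecam1 did not match 1 gene each. Coordinates of genes and lncRNAs are those of the deposited tables. Promoter sequences came from RefSeq on GRCr8. Alternatives were DESeq2 1.42.0, edgeR's exact test, glmTreat, other scaling and filters, the 2 groups alone, the library letter as a block and leaving out each library. The scripts were tested on simulated counts with changes put in at D4. For mRNAs, 30 of 96 changes of 2-fold and 85 of 104 of 4-fold were called, with 8 false calls. For lncRNAs, 0 of 99 and 0 of 101 were called, with 0 false calls. Fewer features were changed in the simulation than were called in the data, so these shares do not measure the power there. Tables and plots were made with Python 3.11.15, numpy 2.4.6, pandas 2.3.3 and matplotlib 3.10.9.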

Additional observations from a re-analysis of the deposited data

Results flagged for a closer look

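Shh and Adam17 were called when the injured groups were compared with each other. The log2 fold change of Shh was −1.30 (control 6.90 and 9.95 CPM, D4 44.4 and 58.9, D7 22.3 and 19.5), and that of Adam17 was 1.15 (control 124 and 149 CPM, D4 159 and 152, D7 385 and 305). Both tests came from edgeR's quasi-likelihood fit, with adjusted p = 0.0343 and 0.0215. The 2 D4 and the 2 D7 libraries did not overlap for either gene. They did not overlap for any other member either, such as Gli1, which was not called (adjusted p = 0.398 in the same fit). Separation of 2 libraries from 2 says little alone, since the exact permutation test above gives it p = 0.333. The share of all genes so separated is not given here. As given above, the calls of Shh and Adam17 were lost in fits with 1 library left out. No outlier test was made with 2 libraries per group.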

How the results depend on the processing

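Over 15 alternatives, not counting the other thresholds, 417 of 450 log2 fold changes of the members (10 genes, 3 comparisons) kept their direction and their side of the threshold, 6 passed it newly, 11 no longer passed it and 16 changed sign. The threshold meant here joins the adjusted p and the 2-fold change, so a loss of the adjusted p alone is not counted. In edgeR's quasi-likelihood test without TMM factors, 4 such differences were lost. They were Dhh (adjusted p = 0.0786) and Smo (0.0832) at D4, and Gli2 (0.0670) and Gli3 (0.142) at D7. Gli1 still passed at D4 (0.00230) and D7 (0.00681). Shh was called at D4 and at D7 in each of the 15 alternatives (log2 fold change 2.38 to 2.91 and 1.07 to 1.61). The changes of sign were all in uncalled differences. At D7, Ptch1 became 0.29 without TMM factors, 0.00068 with the exact test, 0.0031 without the filter, 0.033 with at least 10 counts in every library, 0.00067 with the 2 groups alone, 0.013 with the replicate block, 0.0022 with the crossed block, 0.22 without control b and 0.08 without D7 b. Without TMM factors Dhh became 0.20 at D7, and Gli2 0.026 and Gli3 0.0050 at D4. Dhh at D7 was 0.07 without control a and 0.16 without D7 b, and Gas1 at D7 was −0.22 without control b and −0.34 without D7 b. Over the 6 libraries left out in turn, these D7 values ran from −0.37 to 0.16 for Dhh, from −0.20 to 0.22 for Ptch1 and from −0.34 to 0.66 for Gas1.

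Without a fold threshold, 4, 6 and 1 members passed at D4, at D7 and between D7 and D4, and 21, 24 and 3 of the other pathway genes. Of all tested genes 44.2%, 37.5% and 4.67% did so. When the 2-fold change itself was tested, 1, 0 and 0 members and 5, 4 and 0 other genes passed, and 0 lncRNAs at D7. The exact test and the fit of the 2 groups alone called 2 members at D4, the added one being Hhip, while with the 2 groups alone the D7 calls of Hhip (adjusted p = 0.0557), Bmp2 (0.0760), Cdon (0.0639), Bmp4 (0.0725) and Wnt5a (0.0611) were lost. Leaving out 1 library gave 1 to 2 members at D4, 1 to 3 at D7 and 0 to 2 between D7 and D4, and 5 to 13 other pathway genes at D4 (13 without control a), 8 to 14 at D7 and 0 to 1 between D7 and D4. Where this leaves 1 library in a group, that library is assumed to vary like the other groups. For lncRNAs at the loci, the call at D7 gave way to 0 without the filter, with the 2 groups alone, with the replicate block and without any 1 library, and there were 2 with RLE factors, 4 with DESeq2 and 3 with the exact test. At D4 there was 1 without TMM factors, with the exact test, with at least 10 counts in every library and with the crossed block, and 2 with DESeq2. Over all 14077 lncRNAs, 815 were called at D7 in the main fit, 833 with RLE factors and 1468 with DESeq2. At D4 these counts were 1415 in the main fit, 1525 without TMM factors and 1928 with DESeq2. Other counts here and below stand without the share over all features, so they are not read as results about the pathway. The cause of these shifts was not tested.

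Same-lettered libraries deviated from their group means with correlations of 0.01 (control and D4), 0.19 (control and D7) and −0.13 (D4 and D7) across mRNAs, and the letters mark different rats. With the letter as a replicate block, 1, 3 and 1 members and 8, 13 and 1 other genes were called. With the D4 letters exchanged, an alternative chosen after seeing the data, 1, 3 and 1 members were called. Without TMM factors the D4 call of Gpc6 and the D7 calls of Bmp2, Cdon, Bmp4 and Wnt5a were lost.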
